A study of Mus musculus with 4 samples.

Results

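The BAF (mammalian SWI/SNF) chromatin remodelling complex exchanges several of its subunits when a neural progenitor becomes a neuron. The genes of these subunits were examined in the E15 mouse cerebral cortex with and without human SERPINA3. The 10 genes were taken by name from the 26433 genes of the bulk RNA sequencing table: 4 subunits typical of progenitors (Actl6a, Phf10, Dpf2 and Ss18), 4 typical of neurons (Actl6b, Dpf1, Dpf3 and Ss18l1), and the ATPases Smarca4 and Smarca2. Total RNA of telencephalic tissue, labelled cerebral cortex, was sequenced from 2 libraries of conditional knock-in embryos (cKI f/+, table columns KI2 and KI3) and 2 libraries of wild-type (WT) littermates (WT1 and WT3), all at embryonic day 15 and of the labelled strain C57BL/6. The cKI f/+ embryos carry 1 allele of human SERPINA3 in the Rosa26 locus, behind a CAG promoter and a stop cassette flanked by loxP sites, together with the Nestin-Cre transgene. Cre removes the stop only in Nestin-positive cells and their descendants, so other cells of the tissue do not gain SERPINA3 by design. The founders were crossed with B6D2F2 mice before the cross with Nestin-Cre mice, so the background need not be purely that of the labelled strain. The comparison asks whether the balance of progenitor-type and neuron-type subunits differed between the cortices of both genotypes.

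BAF complexes use the energy of ATP to move nucleosomes, and SMARCA4 (BRG1) or SMARCA2 (BRM) is the motor. As progenitors leave the cell cycle, ACTL6A (BAF53a) is exchanged for its relative ACTL6B (BAF53b), the PHD finger proteins PHF10 (BAF45a) and DPF2 (BAF45d) give way to DPF1 (BAF45b) and DPF3 (BAF45c), and SS18 is exchanged for SS18L1 (CREST). In progenitors the repressor REST holds down miR-9 and miR-124 genes, and in neurons the released miR-9-3p (also called miR-9*) and miR-124 repress the Actl6a transcript.

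The mature miR-9 sequences and their possible sites in the measured transcripts are shown first, because they are the known link between the switch and its regulators. The mature sequences are those of RefSeq for GRCm38.p6, written 5′ to 3′, and the capitals mark the seed, bases 2 to 8, which pairs with targets. Each of the mature forms comes from the same 3 genes, Mir9-1, Mir9-2 and Mir9-3.

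mmu-miR-9-5p: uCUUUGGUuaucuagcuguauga

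mmu-miR-9-3p: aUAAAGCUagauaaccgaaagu

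A 3′ UTR holds a seed match where it contains the reverse complement of the seed on the transcript strand, ACCAAAG for miR-9-5p and AGCTTTA for miR-9-3p. In the longest annotated 3′ UTR of each member, the miR-9-3p match occurred in 2 of 10 members, Actl6a and Smarca2, and the miR-9-5p match in 0 of 10. Over 21014 genes with a 3′ UTR in GENCODE M21, 11.3% hold the miR-9-3p match and 12.2% hold the miR-9-5p match. Both sites are shown with 30 bases of the transcript strand of GRCm38, the match in capitals. The Actl6a site lies at chr3:32726629-32726658 on the plus strand, in a 3′ UTR of 371 bases, and its match starts 38 bases after the stop codon. The Smarca2 site lies at chr19:26777491-26777520 on the plus strand, in a 3′ UTR of 952 bases, and its match starts 132 bases after the stop codon.

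Actl6a: tcaacgtctgtAGCTTTAgtacactcagga

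Smarca2: catctagaactAGCTTTAgggtagtgccag

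A match is a description of letters and not a measured site. The levels of both genes are given with the other members.

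The libraries held between 17423512 and 18119444 counts on genes, and 3 counts, taken as the floor of detection, corresponded to between 0.166 and 0.172 CPM (the counts of a gene scaled to the total of its library), which covers counting error only. The sequenced tissue carried the markers of embryonic cortex in every library: the summed level of 14 radial glial and cycling genes lay between 3249 and 3469 CPM, and that of 14 neuronal genes between 6288 and 7070 CPM. The 6 intermediate progenitor genes summed to 1212.6 and 1219.1 CPM in KI2 and KI3 against 1209.7 and 1153.6 CPM in WT1 and WT3. Eomes, Neurog2 and Neurog1 were higher in both cKI f/+ libraries, and the other 3 overlapped. None of the 6 was called, with a lowest adjusted p of 0.969 in edgeR's quasi-likelihood test. Of genes of the dorsal telencephalon, Emx1, Emx2 and Lhx2 were higher and Neurod2 was lower in both cKI f/+ libraries than in both WT libraries. The 8 ventral genes summed to 219.5 and 251.9 CPM against 229.4 and 298.2 CPM, so the sums overlapped. Of these genes, 3 had groups that did not overlap, 2 lower and 1 higher in cKI f/+ libraries, beside 33.9% of all genes tested. Dlx2 had 437 and 609 counts in KI2 and KI3 against 679 and 862 in WT1 and WT3, Gsx2 had 2 and 28 against 29 and 40, and Nkx2-1 had 19 and 17 against 6 and 3. The genotypes were also separated by sex. Xist, transcribed from the inactive X chromosome, had 13223 and 11882 counts in KI2 and KI3 against 5 and 5 in WT1 and WT3, and the Y-linked gene Kdm5d had 0 and 0 counts against 951 and 918, so sex and genotype cannot be told apart. Choroid plexus markers summed to 9.70 and 64.0 CPM in cKI f/+ libraries against 1.31 and 2.47 CPM in WT libraries, with 3 of the 6 genes higher in both cKI f/+ libraries, and of its defining genes Ttr had 116, 956, 0 and 4 counts in KI2, KI3, WT1 and WT3 while Kcnj13 and Kl had at most 2. Meningeal markers summed to 21.3 ± 1.43 CPM against 11.5 ± 0.654 CPM (SD, n = 2 each), with 4 of 7 genes higher in both cKI f/+ libraries. Of the others, Foxd1 was lower in both, Foxc1 overlapped and Lum was below the filter on low counts. Blood markers summed to 383.2 to 504.9 CPM against 508.5 to 537.9 CPM, with 4 of 7 genes lower in both cKI f/+ libraries. Microglial markers summed to 31.7 to 34.0 CPM against 36.5 to 37.8 CPM, with 4 of 7 genes lower in both. Of all genes tested, 16.0% were higher in both cKI f/+ libraries and 18.0% were lower in both. The part of sex, of these regional markers and of these cell types in any value of the BAF genes was not tested. In such bulk tissue, fewer cells of a type and less RNA per cell cannot be told apart.

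All 10 members passed the filter on low counts, and none was called differentially expressed between cKI f/+ and WT cortices at a Benjamini-Hochberg adjusted p under 0.05 in edgeR's quasi-likelihood test, where 0.120% of the 15786 genes tested were called. Of all genes tested, 0.0697% were called higher in cKI f/+ cortices and 0.0507% lower. DESeq2 also called 0 of the 10, and the lowest adjusted p among the members in edgeR was 0.969. At an unadjusted p under 0.05, 1 of 10 members passed, Smarca2, which was lower in cKI f/+ cortices, and 4.60% of all genes tested passed (2.26% higher and 2.34% lower). The median log2 fold change (cKI f/+ over WT) of the 10 members was 0.05, beside 0.00 over all genes tested. In 3 members (Actl6a, Ss18 and Dpf1) both cKI f/+ libraries lay above both WT libraries in CPM, in 1 (Smarca2) both lay below, and in 6 the groups overlapped. Over all genes tested, 33.9% had groups that did not overlap, 16.0% with the cKI f/+ libraries above and 18.0% with them below. The labels do not say that the libraries came from separate embryos, while the study's methods define biological replicates in mice as different embryos. The p-values therefore measure the spread between these libraries, part of which may be technical, and with 2 libraries against 2 an exact two-sided permutation test of a single value cannot go below 0.3333.

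**Figure D1:**
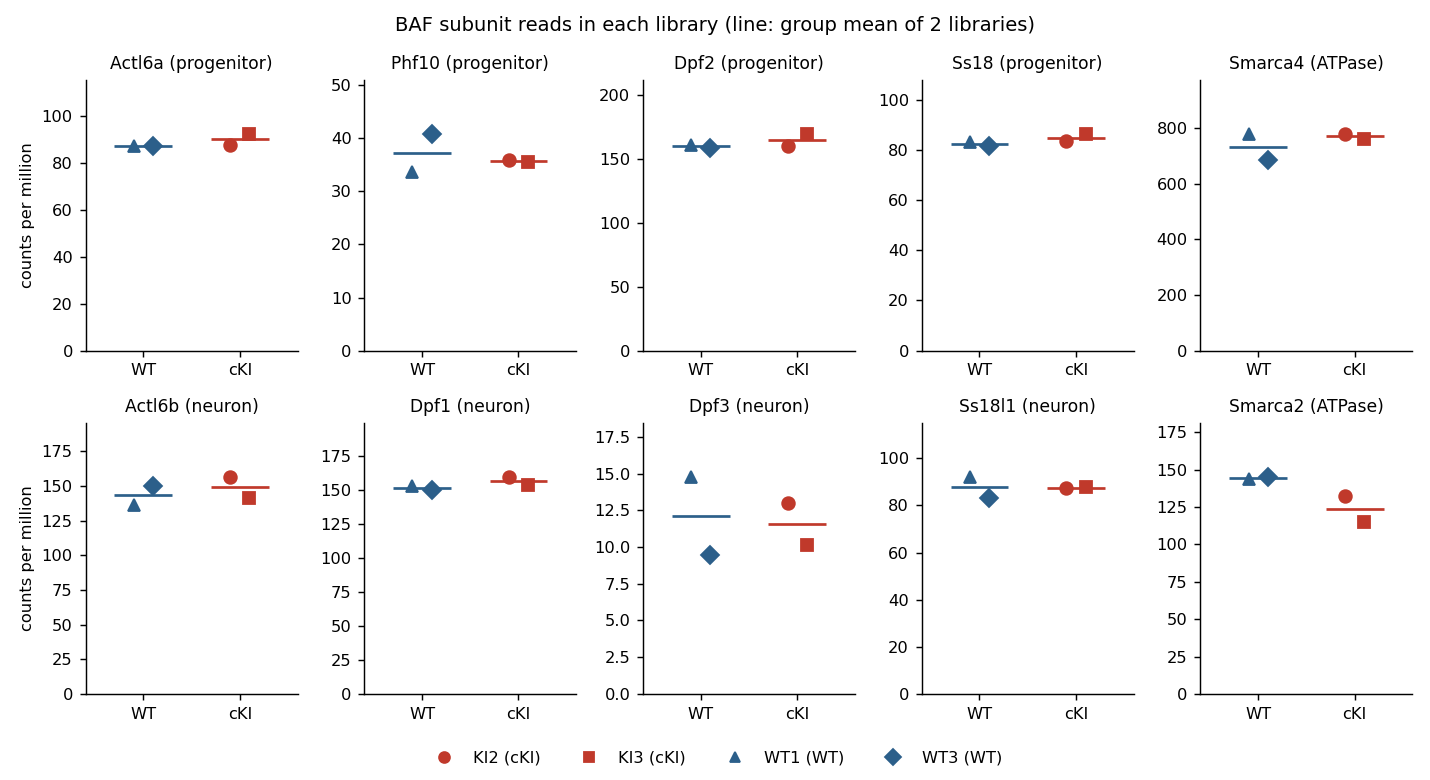
Level of each member (CPM) in each library, with WT libraries in blue and cKI f/+ libraries in red, a line at the mean of the 2 libraries of a group, and each vertical axis starting at 0. The groups of most members lie at the same height, and Smarca2 has both cKI f/+ libraries (132.4 and 114.8 CPM) below both WT libraries (144.0 and 144.9 CPM).

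Among the progenitor-type subunits, Actl6a encodes the actin-related protein that progenitor complexes carry (ENSMUSG00000027671, chr3:32706298-32726973, plus strand, GRCm38). Actl6a had 1553 and 1670 counts in KI2 and KI3 and 1536 and 1516 counts in WT1 and WT3, or 87.6, 92.2, 87.2 and 87.0 CPM in the same order. Both cKI f/+ libraries were above both WT libraries, KI2 by less than the gap between KI2 and KI3. The mean was 89.9 ± 3.26 CPM in cKI f/+ cortices and 87.1 ± 0.133 CPM in WT cortices (SD, n = 2 each). Actl6a had a log2 fold change of 0.05 ± 0.08 (SE), with a 95% interval from -0.12 to 0.22 and an adjusted p of 0.993. On the linear scale the interval ran from -8.12% to 16.7%.

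Phf10 encodes a PHD finger subunit that is also found in PBAF, the form of the complex with PBRM1 (ENSMUSG00000023883, chr17:14945009-14961273, minus strand). It had 35.9 and 35.4 CPM in KI2 and KI3 and 33.6 and 40.7 CPM in WT1 and WT3. The WT libraries enclosed the cKI f/+ libraries and lay farther apart than the group means (35.7 ± 0.341 and 37.2 ± 5.09 CPM, SD, n = 2 each). For Phf10 the log2 fold change was -0.05 ± 0.11 (SE; 95% interval -0.31 to 0.20; adjusted p = 0.994). Dpf2, a PHD finger subunit that most tissues use (ENSMUSG00000024826, chr19:5896516-5913010, minus strand), had 160.0 and 169.6 CPM in KI2 and KI3 and 161.1 and 158.9 CPM in WT1 and WT3. KI3 was the highest library and KI2 lay between the WT libraries. Its log2 fold change was 0.05 ± 0.08 (SE; 95% interval -0.12 to 0.22; adjusted p = 0.993).

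Ss18, the subunit whose human counterpart is fused in synovial sarcoma (ENSMUSG00000037013), had 83.4 and 86.3 CPM in KI2 and KI3 and 83.1 and 81.7 CPM in WT1 and WT3. Both cKI f/+ libraries were above both WT libraries, and the gap between KI2 and WT1 was smaller than the gap within either group. The log2 fold change of Ss18 was 0.05 ± 0.08 (SE; 95% interval -0.12 to 0.22; adjusted p = 0.993). Of the 4 progenitor-type subunits, 3 had a positive and 1 a negative log2 fold change, from -0.05 to 0.05, with a median of 0.05.

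Among the neuron-type subunits, Actl6b encodes the actin-related protein of neuronal complexes, which dendrite growth depends on (ENSMUSG00000029712, chr5:137553517-137569582, plus strand). It had 2774, 2565, 2403 and 2619 counts in KI2, KI3, WT1 and WT3, which are 156.4, 141.6, 136.4 and 150.3 CPM. The groups overlapped, with KI2 highest and WT1 lowest. The mean was 149.0 ± 10.5 CPM in cKI f/+ cortices and 143.4 ± 9.83 CPM in WT cortices (SD, n = 2 each), a log2 fold change of 0.06 ± 0.09 (SE) with a 95% interval from -0.14 to 0.26 and an adjusted p of 0.993.

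Dpf1 encodes a PHD finger subunit of neurons (ENSMUSG00000030584, chr7:29303951-29318243, plus strand). It had 159.7 and 153.5 CPM in KI2 and KI3 and 153.0 and 150.4 CPM in WT1 and WT3. Both cKI f/+ libraries were above both WT libraries, and KI3 and WT1 lay closer to each other than the libraries of either group. The log2 fold change of Dpf1 was 0.05 ± 0.08 (SE; 95% interval -0.12 to 0.22; adjusted p = 0.993). Dpf3, a PHD finger subunit also known from heart and skeletal muscle (ENSMUSG00000021221, chr12:83213745-83487716, minus strand), was the member with the fewest counts, 231, 184, 260 and 165 in KI2, KI3, WT1 and WT3. These are 13.0, 10.2, 14.8 and 9.47 CPM, and the WT libraries, the highest and the lowest, enclosed both cKI f/+ libraries. The log2 fold change of Dpf3 was -0.06 ± 0.22 (SE), and its 95% interval from -0.55 to 0.44 was the widest among the members (adjusted p = 0.994). A change of Dpf3 within these bounds was not detectable at this spread between libraries.

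Ss18l1 encodes CREST, a transactivator of neurons that responds to calcium (ENSMUSG00000039086, chr2:180042509-180070201, plus strand). Its level was 87.2 and 87.7 CPM in KI2 and KI3 and 92.0 and 83.2 CPM in WT1 and WT3, and both cKI f/+ libraries lay between the WT libraries. The log2 fold change was 0.00 ± 0.08 (SE; 95% interval -0.18 to 0.19; adjusted p = 0.997), and its sign turned with library size in place of TMM scaling (-0.00270). Of the 4 neuron-type subunits, 3 had a positive and 1 a negative log2 fold change, from -0.06 to 0.06, with a median of 0.03. The ranges of both kinds of subunit therefore overlapped.

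The ATPase Smarca4 (BRG1; ENSMUSG00000032187, chr9:21616169-21704230, plus strand) is needed for progenitors to keep dividing. It had 13803, 13780, 13688 and 11947 counts in KI2, KI3, WT1 and WT3, or 778.2, 760.5, 777.1 and 685.7 CPM. WT3 was the lowest library, while WT1 lay between KI2 and KI3. The mean was 769.4 ± 12.5 CPM in cKI f/+ and 731.4 ± 64.6 CPM in WT cortices (SD, n = 2 each). Smarca4 had a log2 fold change of 0.08 ± 0.08 (SE; 95% interval -0.10 to 0.26; adjusted p = 0.985), the highest among the members.

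Smarca2 (BRM; ENSMUSG00000024921, chr19:26605050-26778322, plus strand), the alternative ATPase, is known to be used more as cells differentiate. It had 2349 and 2080 counts in KI2 and KI3 against 2536 and 2525 counts in WT1 and WT3, or 132.4 and 114.8 CPM against 144.0 and 144.9 CPM. Both cKI f/+ libraries were below both WT libraries, and the WT libraries were closer to each other than the cKI f/+ libraries. The mean was 123.6 ± 12.5 CPM in cKI f/+ and 144.4 ± 0.674 CPM in WT cortices (SD, n = 2 each). The log2 fold change was -0.22 ± 0.09 (SE), with a 95% interval from -0.42 to -0.02 that corresponds to -25.2% to -1.28%. In edgeR's quasi-likelihood test the unadjusted p was 0.0353, the 505th lowest of 15786 genes, and the adjusted p was 0.969, so the difference did not pass the test over all genes. The difference also depended on single libraries: the log2 fold change was -0.34 without KI2 and -0.11 without KI3 (unadjusted p = 0.0104 and 0.354). Sex separated the genotypes in the same libraries, as did some genes of the intermediate progenitor, dorsal, ventral, choroid plexus, meningeal, blood and microglial lists. Their part in the Smarca2 value was not tested.

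The balance within each exchange was then followed as the log2 ratio of the counts of the neuron-type and the progenitor-type partner in a library, in which library size cancels. Actl6b to Actl6a was 0.84, 0.62, 0.65 and 0.79 in KI2, KI3, WT1 and WT3. The lowest and the highest ratio were both in cKI f/+ libraries, and the difference of the means (cKI f/+ minus WT) was 0.01 (exact two-sided permutation p = 1.0, n = 2 each). Dpf1 to Dpf2 was 0.00, -0.14, -0.07 and -0.08 in the same order, again with both WT libraries between the cKI f/+ libraries and a difference of 0.00. Ss18l1 to Ss18 was 0.06, 0.02, 0.15 and 0.03, a difference of -0.04 with overlapping groups (exact two-sided permutation p = 0.667, n = 2 each).

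The ratios with Phf10 and Dpf3 varied more between the WT libraries, with SDs of 0.216 to 0.65 against 0.00368 to 0.101 for the ratios above (n = 2). Dpf1 to Phf10 was 2.15, 2.12, 2.19 and 1.88 in KI2, KI3, WT1 and WT3, and WT3 alone stood lower. Dpf3 to Dpf2 was -3.62, -4.06, -3.45 and -4.07, and Dpf3 to Phf10 was -1.46, -1.80, -1.18 and -2.10, each with the cKI f/+ libraries inside the range of the WT libraries. The differences of the means were 0.10, -0.08 and 0.01, respectively. Smarca2 to Smarca4 was -2.56 and -2.73 in cKI f/+ libraries and -2.43 and -2.24 in WT libraries, a difference of -0.30. It was the single ratio of the 7 whose groups did not overlap, with an exact two-sided permutation p of 0.3333 (n = 2 each), the smallest that this design can give. The other 6 ratios overlapped between genotypes.

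**Figure D2:**
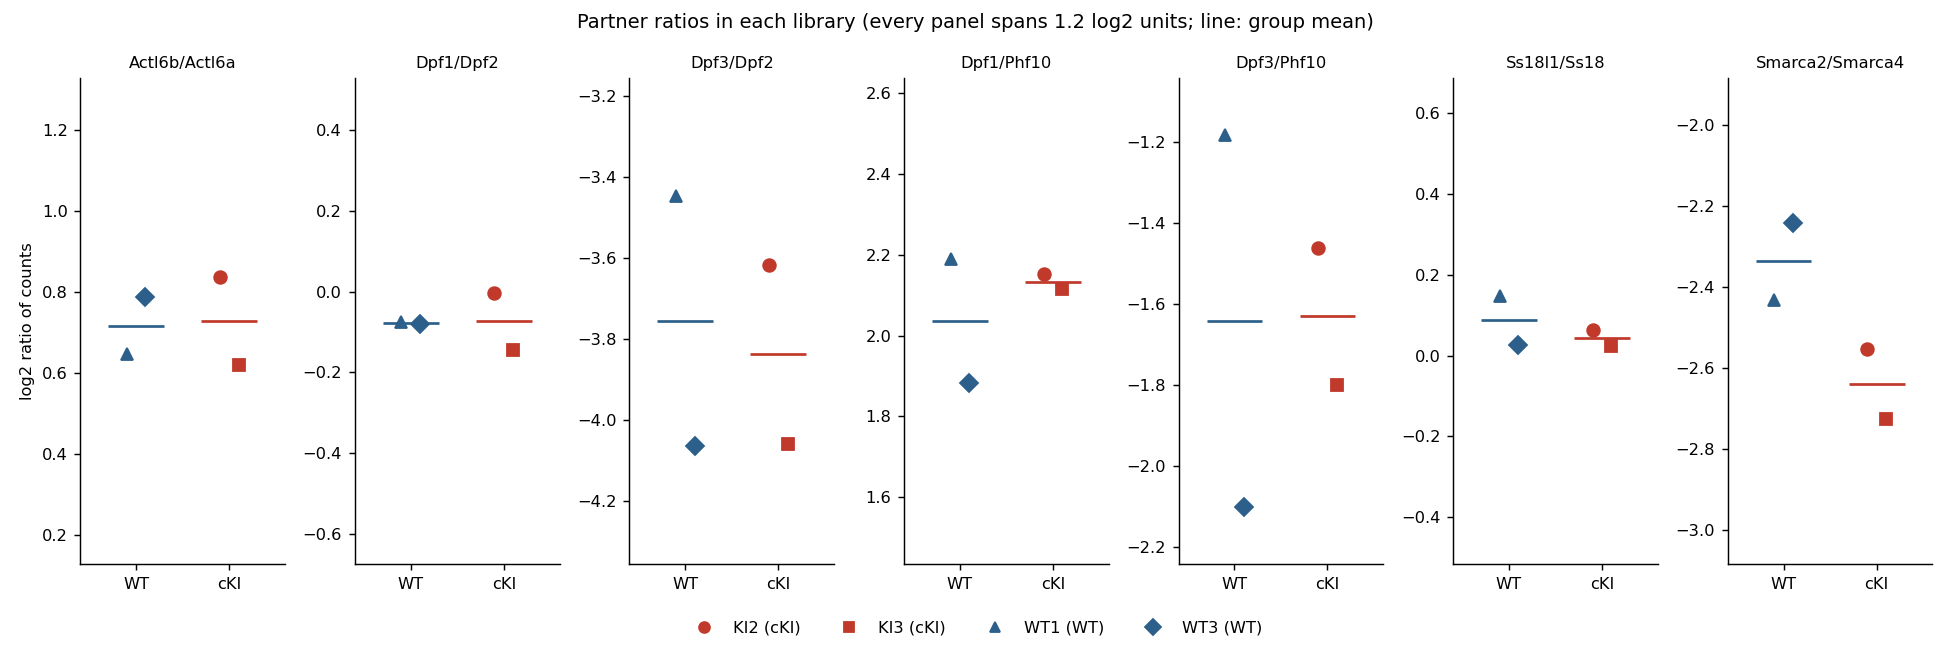
Log2 ratio of neuron-type to progenitor-type counts, and of Smarca2 to Smarca4, in each library, with WT in blue, cKI f/+ in red, a line at each group mean, and vertical axes that all span the same number of log2 units. The first 6 ratios overlap between genotypes, and the Smarca2 to Smarca4 ratio has the cKI f/+ libraries (-2.56 and -2.73) below the WT libraries (-2.43 and -2.24).

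Summed over the 4 genes, the progenitor-type subunits had 366.9, 383.5, 365.0 and 368.4 CPM in KI2, KI3, WT1 and WT3, and the neuron-type subunits had 416.3, 392.9, 396.2 and 393.4 CPM. The means of the progenitor-type sum were 375.2 ± 11.7 CPM in cKI f/+ and 366.7 ± 2.39 CPM in WT cortices, and those of the neuron-type sum were 404.6 ± 16.5 and 394.8 ± 1.99 CPM (SD, n = 2 each). The log2 ratio of the means, cKI f/+ over WT, was 0.03 for the progenitor-type and 0.04 for the neuron-type sum, but these values rested on single libraries: without KI2 they were 0.06 and -0.00672, and without KI3 they were 0.00103 and 0.08. The libraries within the cKI f/+ genotype differed more than the genotypes did. KI2 had the higher neuron-type sum and the lower progenitor-type sum, and it also had the higher sum of neuronal markers (6801 CPM against 6288 CPM in KI3) and the lower sum of radial glial and cycling markers (3249 CPM against 3469 CPM). The WT pair did not show the same order for neurons, since WT3 had the higher sum of neuronal markers (7070 CPM against 6708 CPM in WT1) and the lower neuron-type sum.

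Levels were compared between genes per kilobase, as CPM divided by the length of all annotated exons. On this scale Smarca4 was highest, at 105.9 to 120.2 CPM per kb over the 4 libraries. Actl6b followed at 32.0 to 36.7, Dpf1 at 28.0 to 29.7, Dpf2 at 24.4 to 26.1, Actl6a at 22.4 to 23.7 and Ss18l1 at 19.2 to 21.2 CPM per kb, with no overlap between neighbours. Ss18 (8.67 to 9.16 CPM per kb), Smarca2 (8.04 to 10.2) and Phf10 (6.83 to 8.29) stood lower, and in this order each overlapped its neighbour. Dpf3 was lowest at 2.24 to 3.49 CPM per kb. The order of the first 5 genes and the place of Dpf3 were the same with the length of the longest coding transcript, while Phf10, Ss18, Smarca2 and Ss18l1 then overlapped from 19.2 to 24.5 CPM per kb.

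**Figure D3:**
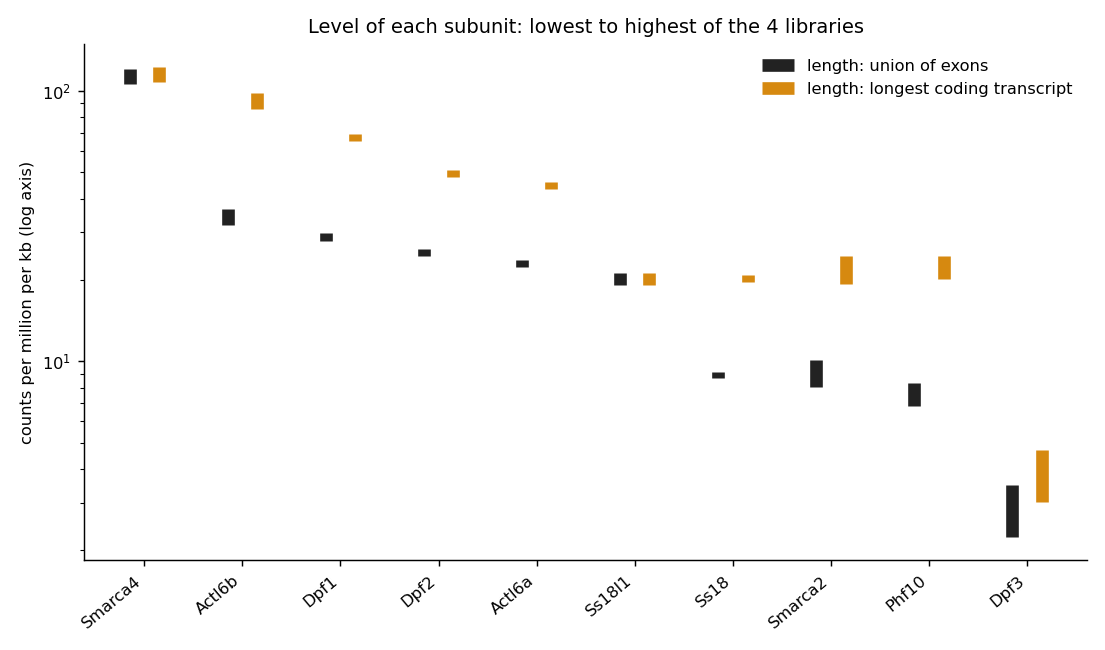
Level of each member in CPM per kilobase on a log axis, each bar running from the lowest to the highest of the 4 libraries, with the length taken as all exons (black) or as the longest coding transcript (orange). Smarca4 is highest and Dpf3 lowest on both lengths, and Ss18l1 stands above Ss18 with the exon length (19.2 to 21.2 against 8.67 to 9.16) but overlaps it with the transcript length.

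Subunits of both kinds were therefore measured side by side in each cortex. The neuron-type subunits made up 56.0% to 58.6% of the summed level per kb of the 8 exchanged subunits, from 56.0% to 58.6% in cKI f/+ and from 57.0% to 57.5% in WT libraries. Actl6b took 58.3% to 61.9% of the Actl6a and Actl6b level. Among the 4 PHD finger subunits, Dpf1 took 44.4% to 45.9%, Dpf2 38.0% to 40.6%, Phf10 10.7% to 13.2% and Dpf3 3.56% to 5.50%, and the neuron-type Dpf1 and Dpf3 together took 48.0% to 50.7%. Ss18l1 took 68.8% to 70.6% of the Ss18 and Ss18l1 level. These shares depended on the length used: with the longest coding transcript the Ss18l1 share was 49.3% to 51.4%, that of Actl6b 66.0% to 69.3%, that of Phf10 14.4% to 17.4% and that of Dpf3 2.15% to 3.37%, while the 8-gene share of the neuron-type subunits was 56.2% to 58.9%. Smarca2 took 6.41% to 7.17% of the ATPase level in cKI f/+ cortices and 7.76% to 8.75% in WT cortices, or between 14.0% and 18.5% over the 4 libraries with the longest coding transcript. The spread of single genes over the libraries was small for most members: the highest library exceeded the lowest by 1.06-fold in Actl6a, Ss18 and Dpf1, 1.07-fold in Dpf2, 1.11-fold in Ss18l1, 1.13-fold in Smarca4 and 1.15-fold in Actl6b. It was 1.21-fold in Phf10, 1.26-fold in Smarca2 and 1.56-fold in Dpf3.

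The other subunits and partners of the complex were read from the same fit. Of 44 genes listed, 42 were in the table, since Gltscr1 and Gltscr1l are older symbols of Bicra and Bicral, and all 42 were tested. None of the 42 was called at an adjusted p under 0.05 in edgeR's quasi-likelihood test or in DESeq2, 3 had an unadjusted p under 0.05 (4.60% over all genes tested), and the median log2 fold change of the 42 was -0.01. In 6 of the 42 both cKI f/+ libraries lay above both WT libraries and in 7 both lay below, while 29 overlapped. Groups that did not overlap were found in 33.9% of all genes tested.

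Among the 15 further subunits of the canonical complex, the log2 fold changes ran from -0.13 (Bcl11b, which marks deep layer neurons) to 0.16 (Smarcd3), with a median of 0.01. Smarcd3, which encodes BAF60c and is known from heart and neuronal complexes, had 161.8 and 155.3 CPM in KI2 and KI3 against 145.0 and 140.2 CPM in WT1 and WT3. Its groups did not overlap, and its log2 fold change of 0.16 ± 0.08 (SE) had an unadjusted p of 0.0660 and an adjusted p of 0.969. The core scaffold genes Smarcc1 and Smarcc2 had log2 fold changes of -0.02 and 0.01, and Smarcb1, whose product anchors the complex on the nucleosome, had 0.01. Arid1a and Arid1b, which encode the DNA binding subunits of the canonical complex, had 0.02 and -0.12.

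Of the 6 subunits particular to PBAF and to the non-canonical complex, Pbrm1, the polybromo subunit of PBAF, had 96.8 and 88.2 CPM in KI2 and KI3 against 115.2 and 103.5 CPM in WT1 and WT3. Both cKI f/+ libraries were below both WT libraries, with a log2 fold change of -0.24 ± 0.09 (SE), an unadjusted p of 0.0252 and an adjusted p of 0.969. Arid2, Brd7 and Phf10, which also belong to PBAF, had log2 fold changes of -0.09, 0.01 and -0.05. Brd9, Bicra and Bicral, of the non-canonical complex, had -0.06, 0.10 and -0.18. ACTL6A is also a subunit of the INO80, TIP60 and SRCAP complexes, so its transcript level is not that of BAF alone. The 12 genes listed for those complexes had log2 fold changes from -0.14 (Ino80c) to 0.04 (Kat5) with a median of 0.01, and none had an unadjusted p under 0.05.

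The list of regulators of the exchange held 9 genes. Rest, the repressor of neuronal genes in progenitors, had 20.2, 23.6, 23.1 and 23.0 CPM in KI2, KI3, WT1 and WT3, with overlapping groups and a log2 fold change of -0.07 ± 0.12 (SE; adjusted p = 0.994). Its corepressors Rcor1 and Rcor2 had log2 fold changes of -0.05 and 0.09. The transcripts that host the microRNA genes stood in for the primary transcripts, since these libraries do not measure mature microRNAs. For miR-9, whose sequences are given above, Mir9-3hg had 185.1 and 202.4 CPM in cKI f/+ and 188.3 and 208.1 CPM in WT libraries (log2 fold change -0.03 ± 0.09, SE). C130071C03Rik, the host of Mir9-2, had 469.4 and 476.9 CPM against 492.8 and 499.7 CPM (log2 fold change -0.06 ± 0.07, SE), with groups that did not overlap. No host of Mir9-1 was on the list. For Actl6a, the member with a match for miR-9-3p and a known target, the log2 fold change was 0.05, and for Smarca2, the other member with a match, it was -0.22.

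For miR-124, Mir124a-1hg had 322.6, 285.6, 253.6 and 322.8 CPM in KI2, KI3, WT1 and WT3 and overlapped between genotypes (log2 fold change 0.08 ± 0.12, SE). Mir124-2hg had 55.4 and 53.2 CPM in cKI f/+ and 62.7 and 67.5 CPM in WT libraries, a log2 fold change of -0.26 ± 0.09 (SE) with an unadjusted p of 0.0168 and an adjusted p of 0.969. The listed host genes of miR-124 thus differed in sign, and neither was called. No other host gene of miR-124 was on the list. The splicing repressor Ptbp1, which progenitors use, had 195.3, 220.2, 193.8 and 198.0 CPM in KI2, KI3, WT1 and WT3 and a log2 fold change of 0.09 ± 0.08 (SE). Ptbp2, the relative that young neurons use, had 263.3 and 264.5 CPM in cKI f/+ against 301.2 and 310.1 CPM in WT libraries. Its groups did not overlap, and its log2 fold change was -0.21 ± 0.07 (SE), with an unadjusted p of 0.0193 and an adjusted p of 0.969. The part of sex, regional markers and other cell types in these values was not tested.

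**Figure D4:**
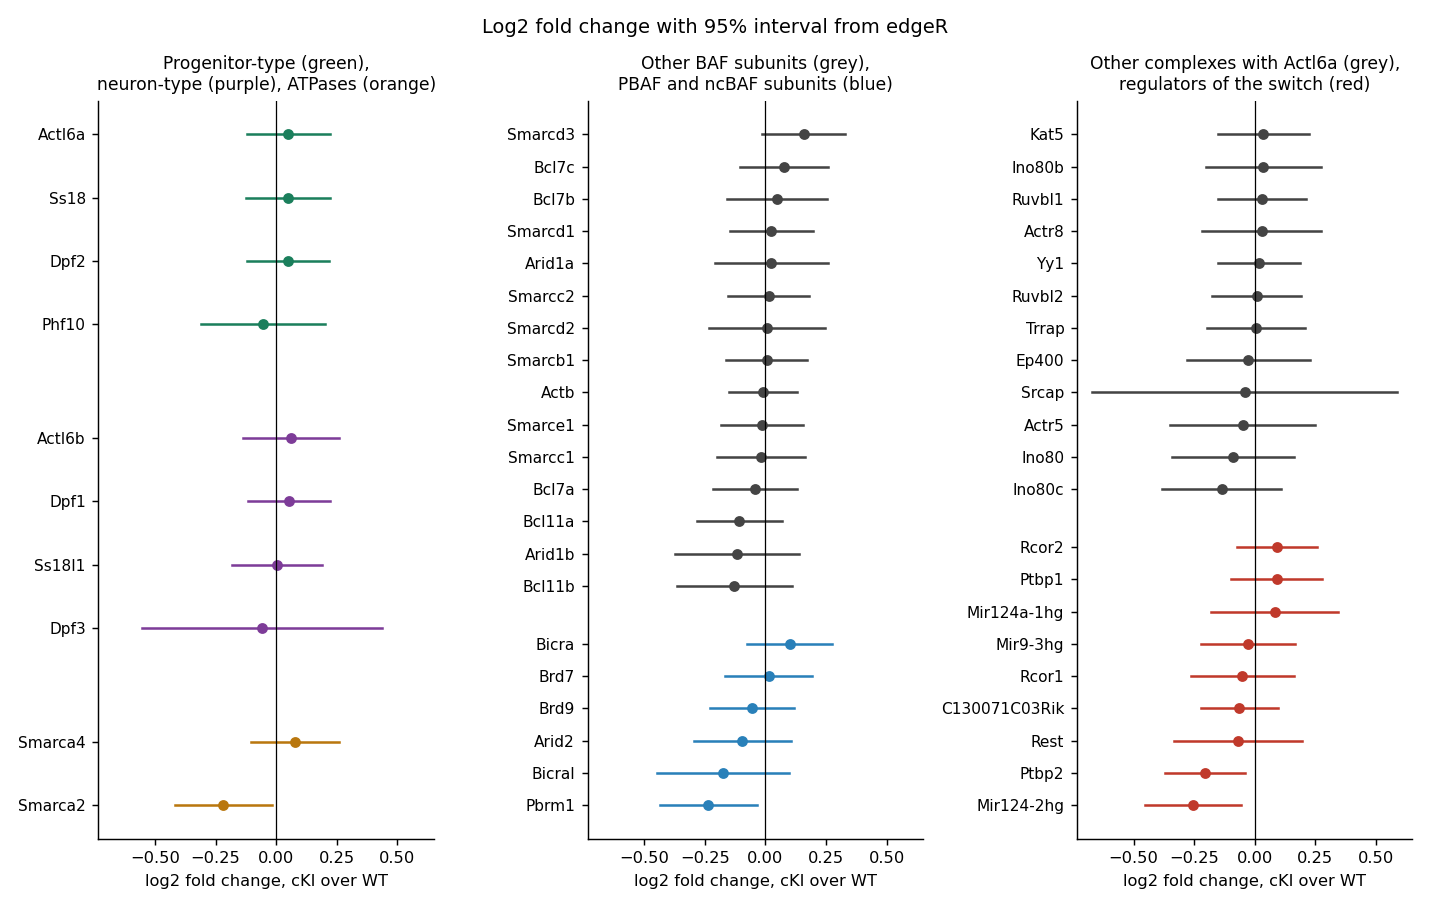
Log2 fold change, cKI f/+ over WT, with its 95% interval from edgeR, for the members (left), the other subunits of BAF, PBAF and the non-canonical complex (middle), and the partners of ACTL6A in other complexes and the regulators of the exchange (right). Most points lie near 0, and the intervals of Smarca2 (-0.42 to -0.02), Pbrm1 (-0.43 to -0.04), Ptbp2 (-0.37 to -0.04) and Mir124-2hg (-0.45 to -0.06) lie below 0 before adjustment over all genes.

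Some members share their place in the genome with other genes. Phf10 overlaps 1600012H06Rik on the opposite strand over 14562 bases, and that gene had 405, 417, 412 and 416 counts in KI2, KI3, WT1 and WT3. Actl6a overlaps Mrpl47 on the opposite strand over 1577 bases, and Mrpl47 had 454, 482, 420 and 439 counts. Whether the counting used strand is not given in the sources used here, so reads in these stretches could have been assigned to either gene or to none. Dpf1 shares 1474 bases with Gm44632, which had between 19 and 51 counts, and Smarca2 shares 9522 bases with 4931403E22Rik, which had at most 4. Near-identical copies were few: Ss18 shared 6.66% of its 31-base words with Gm1826, and the other members shared at most 1.11% with any gene. Of the 5 tested genes on each side of Phf10 on chromosome 17, 0 of 10 were called in edgeR's quasi-likelihood test. Among these neighbours Ermard alone had an unadjusted p under 0.05 (0.0389), with a log2 fold change of 0.32 ± 0.14 (SE), and their median was -0.01.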

How the data were processed

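Total RNA of E15 telencephalic tissue from cKI f/+ embryos and WT littermates was sequenced on an Illumina HiSeq instrument. The authors deposited raw read counts of 26433 genes in 4 libraries, which summed to 17736663 and 18119444 in the cKI f/+ and 17615212 and 17423512 in the WT libraries. Bowtie2 2.2.3, TopHat2 2.0.12, HTSeq 0.6.0 and the build mm9 are credited to the submitters' processing notes, whereas the deposited gene positions are those of GRCm38, identical in GENCODE M21 for 10 of 10 members. The annotation release and the strand setting of the counting are not given in the sources used here. The same table holds the authors' mean normalized signal, fold (ratio), log2 fold change and p-value columns, and these were not used. The count columns were assigned to a genotype by name and not to single labelled samples. The labels describe triplicates, and 2 libraries per genotype were analysed here. Libraries of a genotype were no copies of each other (chi-square per degree of freedom 7.99 for WT and 5.98 for cKI f/+).

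Counts were filtered with filterByExpr (15786 genes kept), normalized by TMM and tested by the quasi-likelihood test of edgeR 4.0.16 in R 4.3.3. The p-values were adjusted by Benjamini-Hochberg over all genes tested, with a threshold of 0.05. The biological coefficient of variation was 8.72%. The standard error is the size of the log2 fold change divided by the square root of F, and the 95% interval follows from it. CPM were computed on the plain library total, and log2 ratios of partners with 0.5 counts added to each. Lengths are unions of GENCODE M21 exons, and the longest coding transcript was an alternative chosen after seeing the data. Shared sequence was counted in words of 31 bases over GENCODE M21 transcripts. A 3′ UTR runs from the stop codon to the transcript end, and the longest per gene was used. The tests were also tested on simulated data. As alternatives, the likelihood ratio test of edgeR, DESeq2 1.42.0, further scalings and filters, a fit without genes of chromosomes X and Y, and fits that omit 1 library were run.

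The members, the gene lists and the rule for named genes (the members, the listed genes and the 5 tested genes on each side of Phf10) were chosen with earlier results of these data known. Mrpl47, Gm44632, 4931403E22Rik, Gm1826 and Mir9-3 fall outside it and were named after their values were seen. Reads of the human transgene were not analysed here, so the table gives no check of the knock-in itself. A result for a single gene is not reported here.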

Additional observations from a re-analysis of the deposited data

How the results depend on the processing

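Over 8 alternatives with all 4 libraries (DESeq2, edgeR's likelihood ratio test, other scalings and filters, chromosomes X and Y left out), the log2 fold changes of the members lay between -0.22 and 0.09 with adjusted p from 0.889 to 0.9995, and no member was called. Ss18l1 turned to -0.00270 with library size only and to -0.00282 with at least 1 count in total. At an unadjusted p under 0.05, 1 member, 3 companion genes and 726 genes passed. The number of genes called, 19, was 11 without chromosomes X and Y, 54 with the likelihood ratio test, and 6 where every library had to hold at least 10 counts. With each library left out in turn it was 48 to 71, and 0 members and 0 companion genes were called. Without 1 library, a genotype has a lone sample, assumed to vary like the other genotype.

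With each library left out, the log2 fold change ran from 0.02 to 0.07 for Actl6a, -0.19 to 0.10 for Phf10, 0.01 to 0.07 for Dpf2, 0.03 to 0.06 for Ss18, -0.0283 to 0.14 for Actl6b, 0.01 to 0.08 for Dpf1, -0.34 to 0.29 for Dpf3, -0.0668 to 0.0733 for Ss18l1, -0.00772 to 0.17 for Smarca4 and -0.34 to -0.11 for Smarca2. The difference of the log2 ratio ran from -0.10 to 0.12 for Actl6b/Actl6a, -0.0663 to 0.0741 for Dpf1/Dpf2, -0.39 to 0.23 for Dpf3/Dpf2, -0.0550 to 0.25 for Dpf1/Phf10, -0.45 to 0.47 for Dpf3/Phf10, -0.10 to 0.0163 for Ss18l1/Ss18 and -0.40 to -0.21 for Smarca2/Smarca4. The summed levels kept log2 ratios of 0.00 to 0.06 (progenitor-type) and -0.01 to 0.08 (neuron-type). Where signs turned, the cause was not tested. No paired analysis was possible because the labels of the genotypes share no replicate number and their columns share only 1. Dpf3 had the widest interval, with 165 to 260 counts a library, both from WT libraries.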

Other observations

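The hairpin gene Mir9-3, which lies inside Mir9-3hg, was listed with 13 and 16 counts in KI2 and KI3 and 6 and 4 counts in WT1 and WT3. The WT counts lay near the floor of 3 counts, and reads on this gene do not measure mature miR-9. Its groups did not overlap, as in 33.9% of all genes tested. The log2 fold change was 1.49 ± 0.53 (SE), with an adjusted p of 0.969 in edgeR's quasi-likelihood test. Mir9-3 passed the filter on low counts only through its cKI f/+ libraries, which ties its direction to the filter. Neither its fold change nor its separated groups can therefore count as support for a difference. Mir9-3hg, the host, had a log2 fold change of -0.03.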
